A study of Homo sapiens with 6 samples.

Results

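The genes described here are the chemokines, interleukins and colony-stimulating factors with their receptors, as arrays measured them in ARPE-19, an established cell line from the human retinal pigment epithelium. They were chosen by symbol: every annotated gene whose symbol begins with CXCL, CXCR, CCL, CCR, TNFSF, TNFRSF or CSF and a number, or is IL with a number and a suffix, was taken, which gave 108 of 14884 named genes. The symbol rule itself uses no measured value, though it was set with earlier results of these data known. Of the 108 members, 36 are chemokine ligands, 14 chemokine receptors, 30 interleukins or their antagonists and binding proteins, 18 subunits of interleukin receptors and 4 colony-stimulating factors or their receptors. No coding gene of a TNF ligand (TNFSF) or TNF receptor (TNFRSF) had a named probe, so those families were not analysed here. Their symbols brought in 2 noncoding RNAs only, TNFRSF10A-DT and TNFRSF14-AS1, which lie beside TNF receptor genes. A further 4 members match by symbol without being cytokines or known cytokine receptors, namely the amino acid oxidase gene IL4I1, IL17REL, and the synaptic adhesion genes IL1RAPL1 and IL1RAPL2. Of 183 protein-coding genes with such symbols in RefSeq, 105 had a named probe. IL6, IL1A, IL1B, CXCL1, IL6ST and IL1R1 are among those not analysed here.

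The cells were differentiated at confluence for 4 weeks in 1% serum. They were then kept without serum for 2 days, either as vehicle controls (3 cultures, called untreated) or with 250 µM FAC, the usual abbreviation of ferric ammonium citrate, an iron salt (3 cultures). Each culture was hybridised to 1 array. The arrays had median log2 intensities between 6.03 and 6.09 over all probes. Of 22 listed markers of this epithelium 17 were measured, and 8 of these lay above the median gene by mean log2 intensity. RDH10 (percentile 99.0 of named genes), OTX2 (97.7), KRT18 (97.5) and TYRP1 (92.2) were the highest, while the defining markers RPE65 (22.6) and BEST1 (26.5) were low. RDH10 was the 1 marker that passed the test described below (-0.39 ± 0.08, limma adjusted p = 0.0430). The labels call the 3 cultures of a group biological replicates of this single line, so the spread below is that between cultures of 1 line.

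Chemokines are small secreted proteins that bind receptors coupled to G proteins and direct the migration of leukocytes and other cells. Interleukins act through receptors built of several subunits, and many are held in check by soluble antagonists or binding proteins. CSF1 and IL34 share the receptor tyrosine kinase CSF1R, on which macrophages and microglia depend. Retinal pigment epithelium is known to secrete chemokines such as CCL2 and CXCL8 when stimulated with inflammatory cytokines.

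With FAC, 4 members rose and 1 fell at an adjusted p under 0.05 in limma, a moderated linear model fitted to all named genes. The risers were the chemokine receptor gene CXCR4 (1.53-fold), the cytokine gene IL18 (1.32-fold), IL24 (1.28-fold), and the receptor antagonist gene IL1RN (1.22-fold). The receptor gene CSF1R was 1.29-fold lower. These 5 of 108 members come to 4.63%, against 3.73% of all 14884 genes called by the same rule, so the share of changed members was near the background. By direction, the background was 1.88% higher and 1.85% lower. Among the dimmest 33.3% of genes by mean level, 2 of 73 members passed (2.74%), against 1.05% of all genes there. Of the 35 brighter members 8.57% passed. With 1 array left out the count was 1 to 3: CXCR4 alone passed without untreated replicate 3, FAC replicate 1 or FAC replicate 3, with IL18 without untreated replicate 1, with IL1RN and CSF1R without untreated replicate 2, and with IL24 and CXCL12 without FAC replicate 2. In RNA of whole cultures, less RNA per cell and fewer cells that hold it cannot be told apart. A change below is the log2 fold change with FAC relative to untreated ± SE, levels are log2 intensities, and n = 3 cultures in each group throughout.

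For the genes that changed, the RefSeq promoter table holds the 250 bases upstream of the start site of CXCR4, IL1RN, CSF1R and IL24, but has no entry for IL18. Below are those of CXCR4, the member with the largest change, and of IL1RN and CSF1R, which moved in opposite directions and carry matches to the motifs searched (GRCh38.p14, 5′ to 3′, RefSeq). The searched motifs were GGG and CC separated by any 5 bases, a frame that holds the NF-kappaB consensus, TGANTCA (AP-1) and TTCNNNGAA (STAT), on both strands, and capitals mark every match. The IL1RN window lies within the span of longer RefSeq transcripts of that gene, and the other windows overlap no RefSeq gene.
CXCR4, chr2:136118150-136118399, minus strand: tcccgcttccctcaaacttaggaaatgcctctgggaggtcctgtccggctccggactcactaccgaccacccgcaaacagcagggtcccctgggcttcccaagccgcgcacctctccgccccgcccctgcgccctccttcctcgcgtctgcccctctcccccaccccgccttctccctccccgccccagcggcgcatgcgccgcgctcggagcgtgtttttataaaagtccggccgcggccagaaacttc
IL1RN, chr2:113117721-113117970, plus strand: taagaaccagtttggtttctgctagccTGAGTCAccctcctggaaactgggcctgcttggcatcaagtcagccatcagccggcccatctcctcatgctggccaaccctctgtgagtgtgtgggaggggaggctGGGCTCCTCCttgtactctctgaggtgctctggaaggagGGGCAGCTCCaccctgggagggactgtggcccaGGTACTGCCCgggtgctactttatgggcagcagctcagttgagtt
CSF1R, chr5:150113366-150113615, minus strand: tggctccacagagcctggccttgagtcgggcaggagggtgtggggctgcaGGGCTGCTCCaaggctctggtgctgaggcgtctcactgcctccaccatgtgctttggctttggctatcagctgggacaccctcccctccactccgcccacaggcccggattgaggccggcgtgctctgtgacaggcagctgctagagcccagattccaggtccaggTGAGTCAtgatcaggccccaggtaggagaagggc
The CXCR4 window holds none of the 3 motifs. The IL1RN window holds 3 matches of the NF-kappaB frame and 1 of TGANTCA, which starts 223 bases before the start site. CSF1R has 1 match of the NF-kappaB frame and 1 of TGANTCA, the latter starting 34 bases before the start site. The window of IL24 holds none. Over the 80 members with a promoter entry, 41 held the NF-kappaB frame (51.2%, against 53.7% of 27305 promoters in the table), 14 held TGANTCA (17.5% against 6.6%) and 8 held TTCNNNGAA (10% against 6.78%). Among promoters of all measured genes the shares were 64.4%, 5.14% and 5.92%. These shares describe letters in a window and were not tested.

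CXCR4, the receptor of CXCL12, guides stem cells, leukocytes and endothelial cells. It measured 7.96, 7.98 and 7.92 on the untreated arrays and 8.63, 8.47 and 8.61 on the FAC arrays. All 3 FAC values lay above all 3 untreated ones, with a gap several times the spread within either group. The change was 0.62 ± 0.06 (95% interval 0.47 to 0.76, limma adjusted p = 0.00339), rank 40 of all 14884 genes by p-value. It was the 1 member that reached 1.5-fold, and it passed in all 14 alternatives run, with adjusted p-values from 0.000138 to 0.0258.

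The ligand gene CXCL12 measured 6.50, 6.67 and 6.44 untreated and 7.07, 6.66 and 7.0 with FAC. FAC replicate 2 lay just below untreated replicate 2, so the groups overlapped. The change was 0.37 ± 0.11 (95% interval 0.11 to 0.63, limma adjusted p = 0.142), at percentile 40.9 of level. Without FAC replicate 2, the array that made the groups overlap, the change was 0.50 (adjusted p = 0.0471). It did not pass without any other single array, where the change lay between 0.29 and 0.44 and adjusted p between 0.142 and 0.35. ACKR3, the scavenging receptor of the same ligand, measured 0.19 ± 0.12 (adjusted p = 0.470).

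IL18 is a proinflammatory cytokine made as a precursor that caspase-1 of the inflammasome cleaves before release, a step that mRNA levels do not show. Its log2 intensity was 8.94, 8.71 and 8.79 untreated and 9.23, 9.23 and 9.17 with FAC, without overlap. It rose by 0.40 ± 0.07 (95% interval 0.24 to 0.55, limma adjusted p = 0.0242). It no longer passed when any 1 array other than untreated replicate 1 was left out. The adjusted p was then 0.0521 for untreated replicate 2, 0.0937 for untreated replicate 3, and 0.106, 0.0782 and 0.0663 for FAC replicates 1, 2 and 3, with the change between 0.34 and 0.42. The genes of its receptor subunits did not pass, with IL18R1 at -0.03 ± 0.05 and IL18RAP at 0.07 ± 0.08. Its soluble inhibitor IL18BP measured -0.10 ± 0.07 (adjusted p = 0.496).

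IL1RN encodes the antagonist that occupies the IL1 receptor without signalling. It measured 5.37, 5.41 and 5.39 untreated and 5.71, 5.64 and 5.68 with FAC. The groups were far apart relative to their SDs of 0.02 and 0.04, but the level was low, at percentile 20.3. The rise was 0.29 ± 0.05 (95% interval 0.17 to 0.41, limma adjusted p = 0.0249). It did not pass once the variance prior was allowed to follow intensity (adjusted p = 0.0535). IL1RN passed without untreated replicate 2 (adjusted p = 0.0496) and not without any other single array, where adjusted p lay between 0.0635 without FAC replicate 2 and 0.112 without FAC replicate 1.

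IL24 belongs to the IL10 family and acts on epithelial cells. Untreated arrays gave 4.67, 4.75 and 4.73, and FAC arrays 5.10, 4.95 and 5.19, again without overlap. The rise was 0.36 ± 0.07 (95% interval 0.20 to 0.52, limma adjusted p = 0.0354), at percentile 12.5 of level. It passed without FAC replicate 2 (adjusted p = 0.0386), and without any other single array the adjusted p lay between 0.0690 and 0.140. IL20RB, a receptor subunit that IL24 uses, measured -0.04 ± 0.08 (adjusted p = 0.849). FCMR, which overlaps IL24 in RefSeq, measured 0.10 ± 0.13 (adjusted p = 0.770).

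CSF1R was the 1 member that fell. Its log2 intensity was 8.55, 8.30 and 8.49 untreated and 8.03, 8.08 and 8.11 with FAC, so every FAC value was below every untreated one. The change was -0.37 ± 0.07 (95% interval -0.54 to -0.20, limma adjusted p = 0.0365). It passed without untreated replicate 2 (adjusted p = 0.0173) and not without any other single array, with adjusted p between 0.0875 and 0.146. After quantile normalization it stood at -0.35 (adjusted p = 0.0511). Its ligand gene CSF1 lay higher on every FAC array (7.98, 7.96 and 8.02 against 8.12, 8.08 and 8.09), by 0.11 ± 0.05 (adjusted p = 0.320), and the other ligand gene IL34 measured 0.10 ± 0.08 (adjusted p = 0.564). CSF1R is best known from myeloid cells, of whose 10 listed markers 6 were measured and none passed. Among these CD163 (percentile 9.63), LYZ (12) and CD14 (17.0) were low, MPO (27.5) and TYROBP (40.5) were intermediate, and CD68, which other cells also hold in their lysosomes, was high (98.5). Their changes ran from -0.12 to 0.07. CD68 was lower on every FAC array (-0.12 ± 0.06, limma adjusted p = 0.360), and in the other measured markers the groups overlapped. The listed markers PTPRC, ITGAM, FCGR3A and AIF1 were not analysed here.

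**Figure D1:**
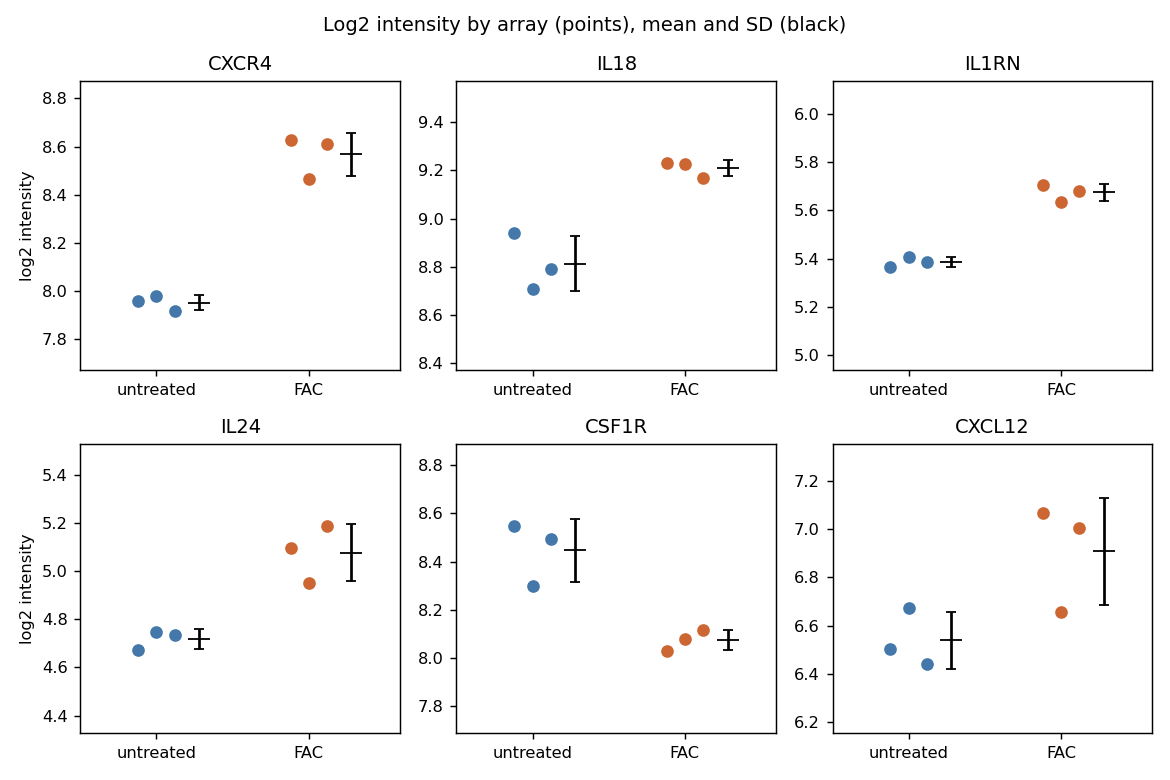
Log2 intensity of the 5 members that passed and of CXCL12 on each of 6 arrays, 3 untreated (blue) and 3 FAC (orange), with the mean and SD in black; every panel spans the same log2 range. The groups separate for CXCR4, IL18, IL1RN, IL24 and CSF1R, and overlap for CXCL12, where FAC replicate 2 (6.66) lies below untreated replicate 2 (6.67).

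Most members were measured at low levels. Their median log2 intensity was 5.63 against 7.18 over all named genes, at percentile 21.8. Of the 108, 73 lay among the dimmest 33.3% of all genes named, 17 above the median gene and 8 above percentile 75. These ranks compare probes that differ in affinity, and the files give no detection calls. As a guide, 6 markers of T and NK cells, which are not expected in an epithelial line, had percentiles between 24.6 and 48.3, so a percentile below the median does not show that a transcript was present. One of the 6, CD4, passed the test (-0.30 ± 0.06, adjusted p = 0.0438). The called members IL24 (percentile 12.5) and IL1RN (20.3) lay below all 6 of these markers, so presence of their transcripts is not shown.

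**Figure D2:**
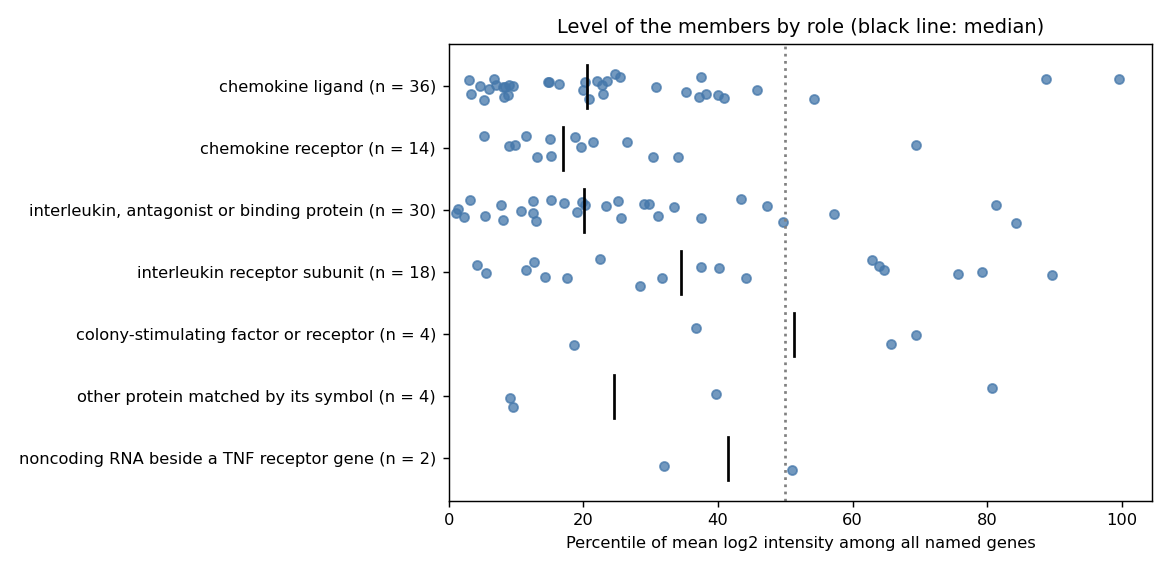
Percentile of mean log2 intensity over 6 arrays among 14884 named genes, 1 point per member, by role, with the role's median as a black line and the median gene dotted. Chemokine ligands, chemokine receptors and interleukins have medians at percentiles 20.6, 17.0 and 20.1, and single genes such as CCL2 at 99.6 stand far to the right.

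None of the 36 chemokine ligands passed. CCL2, which attracts monocytes, was the brightest member at percentile 99.6 and measured 12.43, 12.35 and 12.40 untreated and 12.39, 12.40 and 12.35 with FAC. The 6 values lay within 0.1 of each other, and the change was -0.01 ± 0.05 with a 95% interval of -0.13 to 0.11. The gene of its receptor CCR2 was at percentile 9.84 (0.06 ± 0.08). CXCL16, a transmembrane chemokine that also binds oxidised lipoprotein, was the next of the chemokine ligands at percentile 88.8, with 9.75, 9.65 and 9.72 untreated and 9.56, 9.53 and 9.42 with FAC. All FAC values were lower (-0.20 ± 0.06, limma adjusted p = 0.135), and it passed once the variance prior was allowed to follow intensity (adjusted p = 0.0333). Its receptor gene CXCR6, at percentile 15.2, measured -0.0032 ± 0.08.

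The neutrophil attractant CXCL8 was dim at percentile 8.04, and its values of 4.34, 4.41 and 4.33 untreated and 4.47, 4.57 and 4.47 with FAC did not overlap. The change was 0.14 ± 0.06 (95% interval 0.01 to 0.27, limma adjusted p = 0.251). The related CXCL2, at percentile 45.9, measured 0.17 ± 0.09 (adjusted p = 0.402), CXCL3 0.12 ± 0.10, CXCL5 -0.02 ± 0.09 and CXCL6 -0.07 ± 0.08. Of the interferon-induced ligands, CXCL9 measured -0.28 ± 0.10 (adjusted p = 0.193), CXCL10 0.03 ± 0.11 and CXCL11 -0.01 ± 0.09, all below percentile 10. The B cell attractant CXCL13 (0.21 ± 0.08, adjusted p = 0.245) and the epithelial chemokine CXCL14 (0.19 ± 0.09, adjusted p = 0.351) were higher on every FAC array.

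Among the 23 CC ligands, the largest estimates belonged to dim genes with wide spread. The eosinophil attractant CCL11 measured 4.05, 4.42 and 4.39 untreated and 4.35, 4.41 and 5.18 with FAC, so that FAC replicate 3 alone stood high (0.36 ± 0.21, limma adjusted p = 0.450). CCL18 measured 0.27 ± 0.15 (adjusted p = 0.428) and CCL16 0.20 ± 0.08 (adjusted p = 0.263). CCL21 (0.14 ± 0.07) and CCL28, a mucosal chemokine (0.11 ± 0.06), followed, and the remaining CC ligands lay between -0.09 and 0.11. CCL3L1 and CCL3 are near-identical copies, and CCL15-CCL14 is a read-through transcript, so their separate values (0.10 ± 0.10, 0.06 ± 0.10 and 0.04 ± 0.06) are uncertain.

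Apart from CXCR4, the chemokine receptors lay below percentile 35. CCR7, which guides lymphocytes to lymph nodes (0.21 ± 0.08, limma adjusted p = 0.230), and CCR8 (0.21 ± 0.06, adjusted p = 0.116) were higher on every FAC array without passing. CCR4 measured 0.20 ± 0.10 (adjusted p = 0.364). The CXCL8 receptors CXCR1 (-0.05 ± 0.06) and CXCR2 (0.02 ± 0.07) did not pass.

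Among the 30 interleukins and their antagonists, IL33, a nuclear alarmin of epithelial cells released on damage, had the highest percentile (84.2). It measured 9.27, 9.43 and 9.27 untreated and 9.23, 9.13 and 9.10 with FAC. All FAC values were lower, by -0.17 ± 0.07 (95% interval -0.33 to -0.02, limma adjusted p = 0.243), while its receptor gene IL1RL1 was dim at percentile 11.5 (0.12 ± 0.08). IL11, a cytokine of the IL6 family, measured 7.38, 7.14 and 7.34 untreated and 7.12, 7.04 and 7.0 with FAC. It too was lower on every FAC array (-0.23 ± 0.08, adjusted p = 0.167). IL15 measured -0.11 ± 0.08 (adjusted p = 0.556). The 6 measured ligands of the IL17 family lay between -0.06 and 0.14. IL2, IL4, IL21, IL22 and IL26, cytokines of lymphocytes, lay below percentile 6, with changes between -0.13 and 0.06.

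Of 18 measured receptor subunits, 6 lay above the median gene, namely IL17RA, the shared subunit of IL17 receptors (percentile 89.7), IL4R (79.3), IL17RD (75.6), IL17RE (64.6), IL17RC (63.9) and the IL1 receptor accessory gene IL1RAP (62.8). All 6 had changes between -0.10 and 0.08, and the 95% interval of IL17RA ran from -0.16 to 0.10. The smallest p-values among the subunits were those of IL6R, the ligand-binding subunit for IL6 (6.48, 6.37 and 6.46 untreated, 6.75, 6.55 and 6.71 with FAC; 0.24 ± 0.07, limma adjusted p = 0.127), and IL17RB, which binds IL25 (6.59, 6.58 and 6.50 against 6.90, 6.89 and 6.65; 0.26 ± 0.08, adjusted p = 0.131). Both were higher on every FAC array. The granulocyte factor gene CSF3 (0.05 ± 0.08) and its receptor gene CSF3R (-0.10 ± 0.08) did not pass. IL4I1 was at percentile 80.7 and overlaps NUP62 and ATF5, and it measured 0.01 ± 0.06 (adjusted p = 0.968). IL17REL measured 0.13 ± 0.09 (adjusted p = 0.493). The noncoding RNAs TNFRSF10A-DT (0.21 ± 0.09, adjusted p = 0.263, with -0.04 ± 0.13 at its other probe) and TNFRSF14-AS1 (0.02 ± 0.11) did not pass either.

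**Figure D3:**
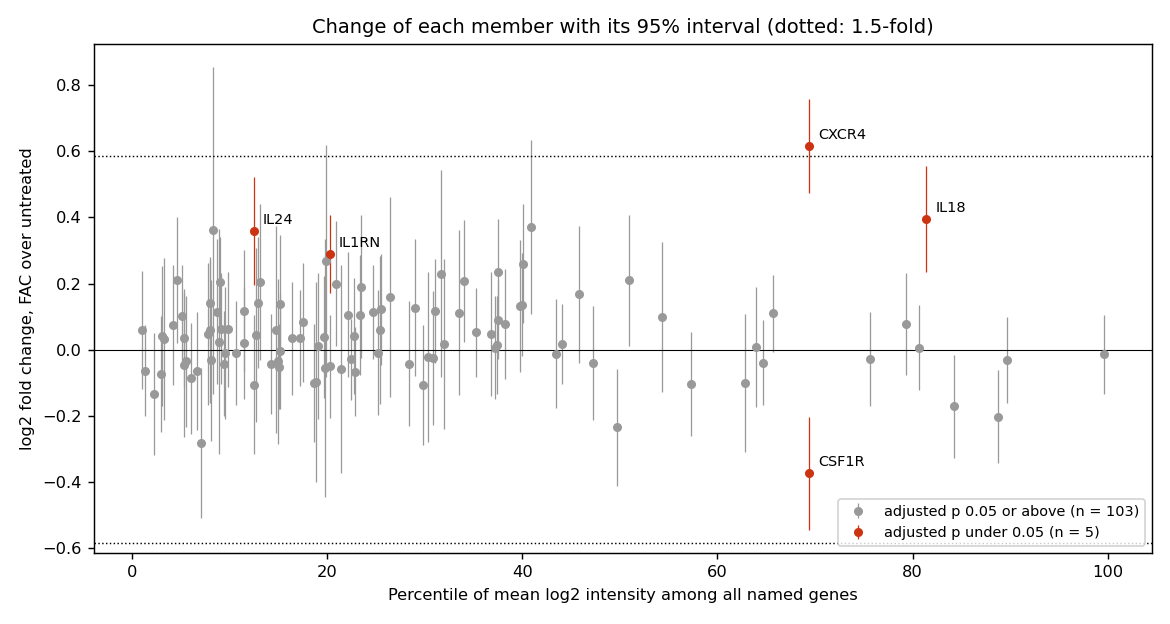
Log2 fold change of FAC over untreated with its 95% interval for each of 108 members, against the percentile of mean level; members with a limma adjusted p under 0.05 are red and dotted lines mark 1.5-fold. The 5 red members stand at percentiles 12.5 to 81.4, and the intervals of 104 members stay between the dotted lines.

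The 95% intervals set a limit on the measured changes, called or not. In 104 of 108 members (96.3%) the whole interval lay within 1.5-fold in both directions, and the same held for 96.5% of all named genes. The 104 include the called genes IL18, IL1RN, IL24 and CSF1R. The exceptions were CXCR4, CXCL12, CCL11 and CCL18. For dim probes the measured ratio can fall short of the ratio of transcripts, so the intervals bound the measured intensity only. In 18 members the groups did not overlap (16.7%, against 23.4% of all genes). FAC was higher in 14 of 108 (background 1549 of 14884, 10.4%) and lower in 4 of 108 (background 1938 of 14884, 13.0%). Dim genes separated less often: among the dimmest 33.3% of all genes 12.3% did not overlap, and 9.59% of the 73 members there. Of the 35 brighter members 31.4% did not overlap.

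The members leaned slightly upward. Of 108, 67 were higher with FAC (62%), against 48.5% of all named genes and 55.7% of the dimmest 33.3% of them, where 73 of the members lie. The median change was 0.037 for the members, -0.0041 for all genes and 0.017 for the dimmest 33.3%. The lean moved with 1 array: members deviated from their own means by 0.069 on average on FAC replicate 3 and by -0.055 on untreated replicate 3, against -0.025 to 0.019 on the other arrays. Without FAC replicate 3 the median was 0.0012 and 54 of 108 were higher. It was larger without FAC replicate 2 (0.059, 76 higher) or untreated replicate 1 (0.06, 74 higher), and between 0.026 and 0.037 when another array was left out. On FAC replicate 3 the dimmest 33.3% of all genes deviated by 0.04, against -0.018 to 0.0038 on the others. With quantile normalization the median was 0.036 for the members and 0.0059 for all genes. With median centring, which shifts all genes of an array alike, it was 0.022 against -0.0193, and with array weights 0.0199 against -0.0057.

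Many members lie beside each other in the genome, and in each run of adjoining members at most 1 gene passed. IL24 ends a run of 4 adjoining genes of the IL10 family, in which IL10 measured 0.14 ± 0.09, IL19 0.01 ± 0.10 and IL20 0.06 ± 0.10, none past the test. IL1RN ends the run that begins with IL1A and IL1B, of which IL37 (-0.11 ± 0.09) and IL36RN (-0.01 ± 0.08) were the other measured genes. CCL2, at percentile 99.6, adjoins CCL7, CCL11, CCL8 and CCL1 across a run in which these 4 lay at percentiles 6.70 to 15.0. In the run of IL1RL2, IL1RL1, IL18R1 and IL18RAP the changes lay between -0.03 and 0.12. The differences between neighbours were not tested.

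**Figure D4:**
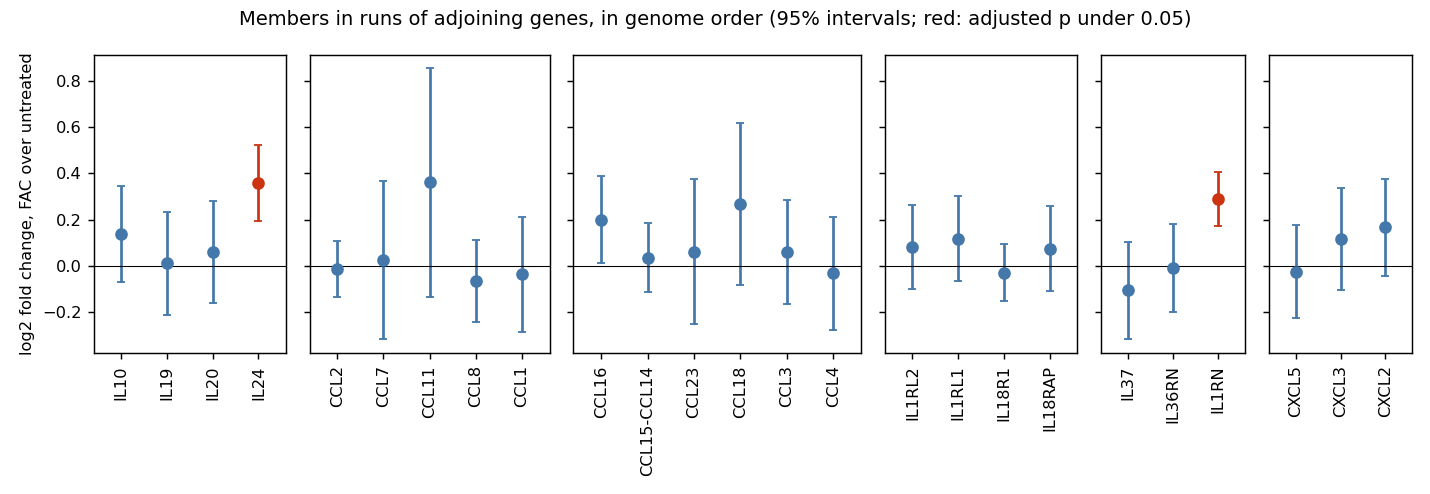
Log2 fold change of FAC over untreated with 95% intervals for members in 6 runs of adjoining genes with at least 3 measured members, in genome order within each panel and not to scale; red marks a limma adjusted p under 0.05. IL24 (0.36) and IL1RN (0.29) stand above their measured neighbours, and the CCL2 interval is the narrowest of its run.

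Beyond the members, a list of 101 genes of the same pathways was read from the same fit: other cytokines and receptors, adaptors, kinases, STAT and NF-kappaB factors and their inhibitors. None of the 65 measured passed the limma test at an adjusted p under 0.05, where 3.73% of all genes did. At an unadjusted p under 0.05 there were 5 (7.69%, against 17.2% of all genes), 1 higher and 4 lower. The list's median change was 0.0063, against -0.0041 over all genes. The feedback inhibitor gene SOCS6 (-0.29 ± 0.07, adjusted p = 0.0575), the adaptor gene TRAF3 (-0.23 ± 0.06, adjusted p = 0.106), the kinase gene IRAK1 (-0.19 ± 0.06, adjusted p = 0.147) and NFKB1, which encodes an NF-kappaB subunit (0.17 ± 0.06, adjusted p = 0.160), had the smallest p-values. SOCS6 and TRAF3 are named here after their values were seen, as are IRAK1 and NFKB1. TNF itself lay at 5.93 ± 0.05 untreated and 6.03 ± 0.12 (SD) with FAC (0.10 ± 0.07, adjusted p = 0.569).

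**Figure D5:**
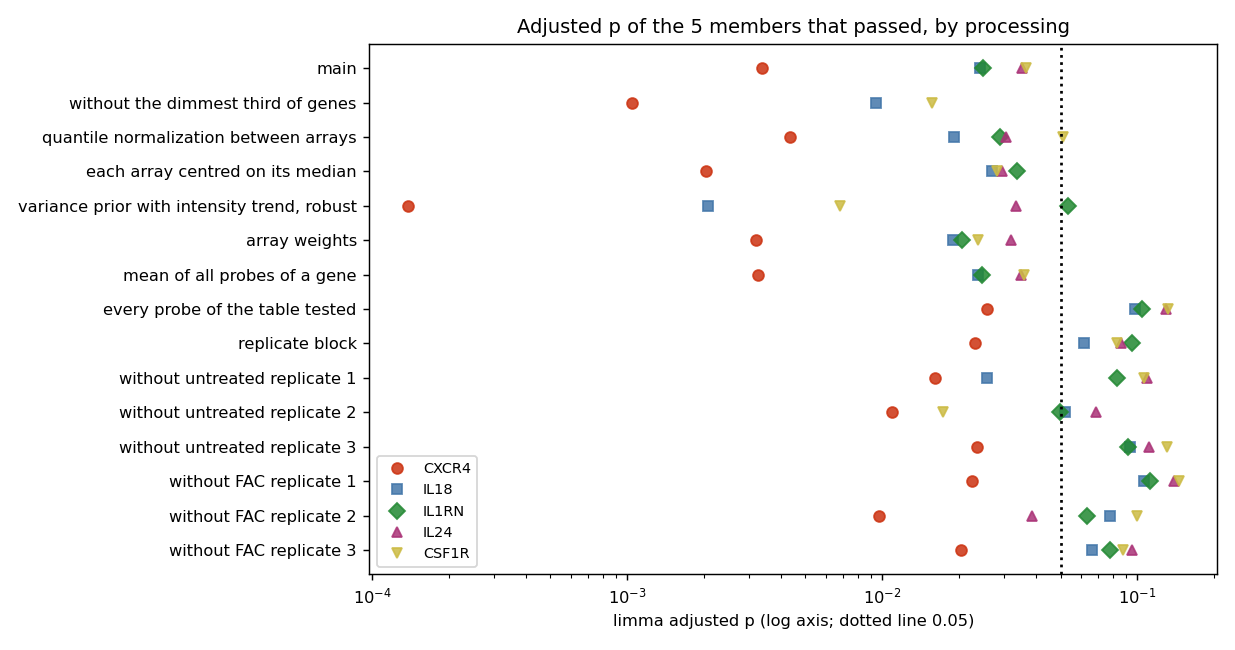
Limma adjusted p (log axis) of the 5 members that passed, as reported (main) and under each of 14 alternatives, with a dotted line at 0.05; IL1RN and IL24 have no point where the dimmest genes were left out. CXCR4 stays left of the line throughout, and the other 4 cross it in several alternatives, among them the test over every probe of the table.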

How the data were processed

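The authors deposited 1 table of log2 intensities for 53617 probes on 6 arrays. The submitters' processing notes list RMA and Partek 6.6 without saying what each did; that the unit is log2 was inferred from the values (2.41 to 14.22). RMA as commonly run makes arrays alike in distribution and narrows changes of dim probes. Arrays carry no read depth, and their number, 3 per group, limits the precision.

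The platform annotation names 16098 probes with 1 symbol each and leaves 37519 unnamed. The probe with the highest mean stood for each of 14884 genes; TNFRSF10A-DT was the 1 member with a second probe. The test of FAC against untreated was limma 3.58.1's (R 4.3.3; lmFit, eBayes, 2-sided). Its p-values were adjusted by Benjamini-Hochberg over every named gene, with a threshold of 0.05 and 95% intervals. The fit was tested on simulated data whose planted changes were all larger than those of IL18, IL1RN, IL24 and CSF1R.

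Named members were those past the threshold, those with the smallest p-values up to 25, the 2 brightest of each role, and a fixed set of cytokine genes; others are named to complete families, pairs or gene runs. Members, lists and rules were chosen with earlier results of these data known. Olfactory receptor genes, planned as a level reference, could not serve, since 1 had a named probe. Order of genes and promoters came from RefSeq (GRCh38.p14); the build behind the array is not given in the sources used here. The alternatives were a filter on dim genes, quantile normalization, median centring, a trended variance prior, array weights, averaged probes, all probes tested, a replicate block, and leaving out each array.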

Additional observations from a re-analysis of the deposited data

How the results depend on the processing

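The count of 555 genes past the threshold became 840 without the dimmest 33.3% of genes, 1026 with a variance prior that follows intensity, 111 when every probe of the table was tested and 184 with the replicate block, and lay between 147 (without FAC replicate 1) and 447 (without untreated replicate 2) without 1 array. Of the members, 5 passed. That count was 3 without the dimmest genes, where 35 of 108 members were tested, 1 when every probe was tested, 1 with the replicate block, and between 1 and 3 without any 1 array: 1 each without untreated replicate 3, FAC replicate 1 or FAC replicate 3, 2 without untreated replicate 1, and 3 each without untreated replicate 2 or FAC replicate 2. The 1 that passed in all 14 alternatives was CXCR4. IL18 passed in 7, IL24 and CSF1R in 6 each, and IL1RN in 5. IL24 and IL1RN were not among the genes tested without the dimmest 33.3%. Averaging probes could not change the values of these 5 members, which have 1 probe each. CXCL16 and CXCL12 passed in 1 alternative each. Of the signalling list, 1 gene passed without the dimmest genes and 2 with the trended prior, all lower, and 0 in each other alternative. Over the 33 named members and their alternatives, 416 of 448 values kept their side of the threshold, 30 calls were lost and 2 gained. All 30 lost calls were of IL18, IL1RN, IL24 and CSF1R, so the 416 are mostly values of members that were never called. No called value changed sign.

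Replicate numbers gave no sign of pairing: deviations from group means correlated at -0.023, -0.0263 and -0.15 for the numbers 1, 2 and 3. Arrays of unlike numbers correlated at -0.0959 to 0.126. Deviations from a mean of 3 arrays depend on each other, so this check cannot settle whether cultures were paired. Under the replicate block the calls of IL18 (adjusted p = 0.0620), IL1RN (0.0952), IL24 (0.0862) and CSF1R (0.0831) were lost. With no detection calls, signal over background was not examined, and 73 of 108 members lay among those dimmest genes, where a change could be missed.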
